A study of Mus musculus with 6 samples.

Results

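The Wnt ligands, their receptors, the secreted antagonists and the core of the beta-catenin relay were followed in 3T3-L1 adipocytes, fat cells made from a mouse pre-adipocyte line, after exposure to leukemia cell conditioned media (LCM). Members were all genes with a Wnt, Fzd, Sfrp or Dkk symbol, together with Lrp5, Lrp6, Axin1, Axin2, Ctnnb1, Tcf7, Tcf7l1, Tcf7l2 and Lef1, where a transcript on the array named that gene alone. This gave 43 of the 46 genes that the rule finds in the RefSeq gene table, among 14860 genes tested. They comprised 19 ligands, 9 frizzled receptors, 2 co-receptors, 7 antagonists, 3 genes for beta-catenin and the axins, and 3 TCF/LEF factors. Dkk1 shared its transcript with Ppp1r2 and Ppp1r2-ps3 and was left out. Fzd9 and Tcf7 were not analysed here.

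Wnt proteins are lipid-modified secreted signals that bind frizzled receptors together with the co-receptors Lrp5 and Lrp6. Binding stops the axin-containing complex from marking beta-catenin for destruction, and beta-catenin then enters the nucleus and activates genes through TCF/LEF factors. Other Wnt signals act through frizzled receptors without beta-catenin. In fat, signalling through beta-catenin is known to hold precursors back from becoming adipocytes, while Sfrp and Dkk proteins block Wnt signals outside the cell, Sfrp proteins by binding the ligand and most Dkk proteins by binding the co-receptors.

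The comparison asked which transcripts differ between adipocytes kept in LCM and those kept in regular media. Per the labels, 3T3-L1 cells were differentiated for 7 days and held in RPMI 1640 with 10% FBS, after which 3 cultures received LCM for 24 hours and 3 control cultures received regular media. The labels make LCM from 8093 cells, a mouse Ph+ acute lymphoblastic leukemia (ALL) line grown with IL-3 and BME, over 48 hours. The methods instead name BV173, a human ALL line, for LCM, and DMEM for the culture of 3T3-L1 cells. For conditioned media the methods give RPMI 1640 with 10% FBS, which the labels give for the adipocytes. What the control media contained is stated in neither source, so an effect of the base media or of the added IL-3 and BME cannot be told apart from that of leukemia cell products. Both groups came from the same line, and each culture had an Affymetrix array of its own. Values are log2 expression.

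The arrays had median log2 expression between 7.5953 and 7.6798. Correlations over all transcripts were 0.990 to 0.994 among the LCM arrays and 0.980 to 0.987 among the controls, and control replicate 2 received the lowest array weight in limma, 0.197 against 0.968 to 2.7 for the others. Of 10 adipocyte markers, 9 were measured and none was dim (a term defined with the signal levels below). Over these 9 the summed linear signal was 53160 to 55340 in control arrays and 37940 to 41180 in LCM arrays. All 9 had every LCM value below every control value, as for 14.7% of all genes, with a median log2 difference of -0.45. Of the 9, 4 fell at an adjusted p under 0.05 in limma, Retn, Adipoq, Cd36 and Cidec, where 1.97% of all genes fell. The sum of 9 measured preadipocyte markers was 9808 to 10660 in control and 9211 to 10550 in LCM arrays, with 0 that passed. Of 6 measured B-lineage leukemia markers, 5 were dim and 0 passed. The sum of the 6 was 2933 to 3541 in control and 2670 to 3031 in LCM arrays. Most of it came from Ebf1, the marker that was not dim. Ebf1 had a mean log2 expression of 11.38, against 4.29 to 6.70 for the others. It was as bright in control cultures, which received no LCM, with means of 11.44 in control and 11.31 in LCM arrays and overlapping groups. The part of these marker levels in the results below was not tested. In such bulk samples, fewer cells of a type and less RNA per cell cannot be told apart.

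No member rose or fell at an adjusted p under 0.05 in limma, where 2.29% of all genes tested rose and 1.97% fell. The methods give a paired, two-sided test at a p under 0.05 and state no adjustment. By the methods' t-test, made unpaired and adjusted here, 0 members and 1.14% of all genes passed. The paired form, also adjusted here, called 0 of all genes and so could separate no list. At an unadjusted p under 0.05 in limma, 0 members were higher and 7 were lower (16.3% of 43). Of all genes, 9.25% were higher and 10.3% were lower. The 7 members were Fzd3, Sfrp2, Fzd2, Wnt2, Wnt3a, Tcf7l1 and Lef1. All 3 LCM values lay below all 3 control values for 9 members (20.9%), these 7 with Fzd4 and Lrp6, as for 14.7% of all genes. All LCM values lay above all control values for 0 members, as for 12.8% of all genes. The log2 difference was below 0 for 29 of 43 members (67.4%), against 57.5% of all genes. The members' median difference was -0.09 on the log2 scale and that of all genes was -0.03. The 95% interval of every member's difference lay inside a change of 2-fold in either direction, with the outermost bounds at -0.77 and 0.49, and 35 members had an interval within 0.5 on the log2 scale.

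Many members gave little signal. The deposited values carry no detection p, so the 712 olfactory receptor genes on the array, which adipocytes are not known to use, served as a reference. A gene with a mean log2 expression at or below their 95th percentile, 6.71, was called dim. By this measure 16 of 43 members (37.2%) were dim, including 8 of 19 ligands, 5 of 7 antagonists, Fzd6, Fzd10 and Axin2. The dim ligands were Wnt1, Wnt2, Wnt3, Wnt6, Wnt7b, Wnt8a, Wnt8b and Wnt16. Neither co-receptor and no TCF/LEF factor was dim. Array signals of different transcripts depend on their probes and were not set against each other as amounts of RNA. Among the 27 members that were not dim, 18 had a difference below 0 (66.7%) and 8 had all LCM values below all control values (29.6%), against 50.5% and 16.5% of all genes that were not dim. The median difference was -0.08 for the members that were not dim and -0.12 for the dim ones.

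**Figure D1:**
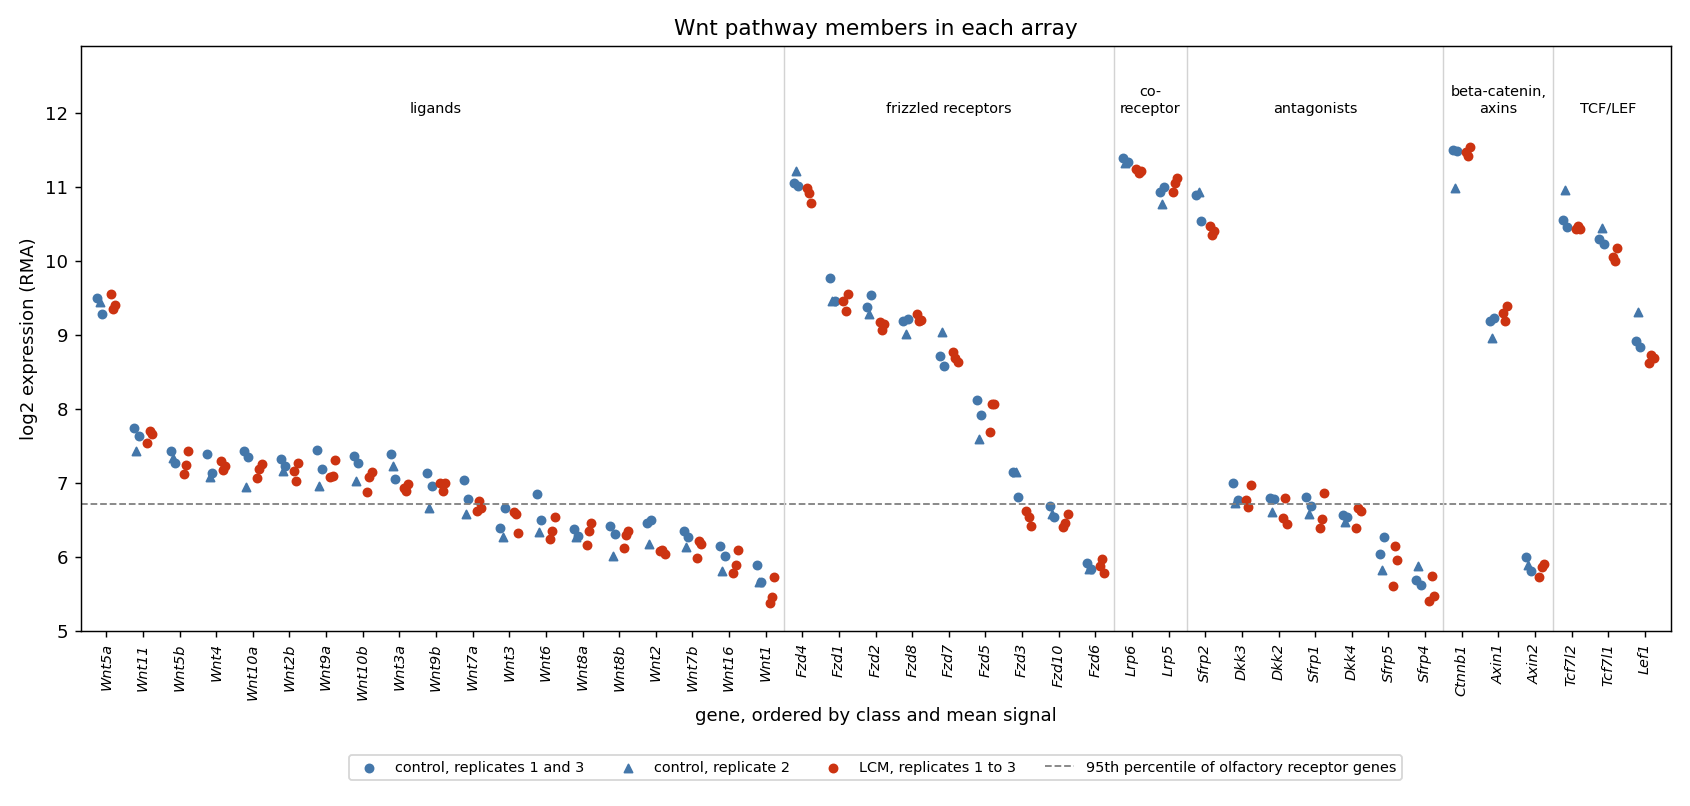
Log2 expression (RMA, y axis) of the 43 members in each of the 6 arrays, ordered by class and mean signal; control arrays are blue, with control replicate 2 as a triangle, LCM arrays are red, and the dashed line marks the 95th percentile of the olfactory receptor genes, 6.71. Wnt5a is the one ligand whose arrays all lie above 9, and 16 members have their mean at or below the line.

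Among the 19 ligands the differences ran from -0.31 to 0.06 with a median of -0.07, and 12 were below 0. Wnt5a, which signals mostly without beta-catenin, had 9.49, 9.44 and 9.28 in control arrays and 9.55, 9.35 and 9.40 in LCM arrays. The groups overlapped, and the difference was 0.03 (95% interval -0.18 to 0.25, adjusted p = 0.876). Wnt3a, a ligand that acts through beta-catenin, had 7.39, 7.23 and 7.05 in control and 6.93, 6.88 and 6.98 in LCM arrays. Its groups were apart, with a difference of -0.29 (SE 0.10, adjusted p = 0.160). Wnt2 was dim, with 6.45, 6.17 and 6.50 in control and 6.07, 6.09 and 6.04 in LCM arrays, a difference of -0.31 (adjusted p = 0.148). The LCM values of Wnt2 were tight and all below the controls, at a signal level that olfactory receptor genes also reach.

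Wnt10b, which is known in mice to restrain adipocyte formation, had 7.36, 7.02 and 7.26 in control and 6.87, 7.07 and 7.14 in LCM arrays. Its groups overlapped, and the difference of -0.19 (95% interval -0.46 to 0.08) did not pass. Wnt6 and Wnt10a, which also restrain adipocyte formation in mouse cells, differed by -0.19 and -0.07, and Wnt6 was dim. Several ligand genes lie next to each other on their chromosomes with 0 protein-coding genes between them in the GRCm38.p6 annotation. The neighbours Wnt10b and Wnt1 on chromosome 15 differed by -0.19 and -0.22, and Wnt9b and Wnt3 on chromosome 11 by 0.04 and 0.06. Of these, Wnt1 and Wnt3 were dim. For Wnt3a and Wnt9a on chromosome 11 the values were -0.29 and -0.03, and for Wnt6 and Wnt10a on chromosome 1 they were those given above. The other ligands with a difference below 0 were Wnt7b, Wnt7a, Wnt2b, Wnt5b, Wnt16 and Wnt9a, between -0.13 and -0.03. Wnt8b was at 0.00, and Wnt8a, Wnt4, Wnt9b, Wnt11 and Wnt3 lay between 0.01 and 0.06.

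Since TCF/LEF factors carry the beta-catenin signal to DNA, the members' promoters were searched for the letters CTTTGAT or CTTTGAA, the core these factors bind, on both strands. RefSeq promoters (GRCm38.p6, 250 bases before to 50 after the start) were at hand for 28 of 43 members. The letters occurred in a promoter of 2 members (7.14%), Wnt11 and Wnt5b, and in a promoter of 8.39% of 11869 genes tested. They occurred in 8.65% of all 32851 promoters of this length. Both promoters are shown with the letters in capitals. The other start listed for Wnt11 (chr7:98838595-98838894) lacks the letters. In the Wnt11 promoter shown (chr7:98834862-98835161, plus strand) the letters begin at position -51 and read on the opposite strand. In Wnt5b (chr6:119449337-119449636, minus strand), at 1 of the 3 starts listed for this gene, they begin at position -71.
Wnt11: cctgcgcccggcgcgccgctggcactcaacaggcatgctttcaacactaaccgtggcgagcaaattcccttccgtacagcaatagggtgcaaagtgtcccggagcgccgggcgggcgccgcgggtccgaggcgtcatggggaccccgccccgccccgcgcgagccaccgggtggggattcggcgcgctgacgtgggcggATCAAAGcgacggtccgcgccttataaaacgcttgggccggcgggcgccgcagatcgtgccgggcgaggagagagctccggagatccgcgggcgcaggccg
Wnt5b: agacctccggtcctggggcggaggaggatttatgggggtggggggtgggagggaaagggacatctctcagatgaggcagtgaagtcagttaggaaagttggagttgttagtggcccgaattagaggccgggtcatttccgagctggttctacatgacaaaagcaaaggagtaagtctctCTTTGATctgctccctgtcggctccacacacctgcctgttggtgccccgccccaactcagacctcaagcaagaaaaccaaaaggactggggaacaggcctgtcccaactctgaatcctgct
Wnt11 had 7.74, 7.42 and 7.63 in control and 7.53, 7.70 and 7.66 in LCM arrays, and Wnt5b had 7.43, 7.33 and 7.26 in control and 7.12, 7.24 and 7.43 in LCM arrays. The groups overlapped in both, with differences of 0.04 and -0.08. With a single value per gene, the GC content of the promoters of the 28 members had a median of 71.0% (48.3 to 86.3%). The median of the genes tested was 58.3%. Further starts of a gene could lie lower, as at 42.0% for a start of Tcf7l2.

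The 9 frizzled receptors had a median difference of -0.12, from -0.50 to 0.09, with 6 below 0. Fzd3, a receptor known for planar polarity and axon guidance, had the lowest adjusted p of all members. It had 7.14, 7.14 and 6.80 in control arrays and 6.62, 6.53 and 6.42 in LCM arrays, so that all LCM values lay below all controls. The mean was 7.03 ± 0.20 in control and 6.52 ± 0.10 in LCM arrays (SD, n = 3), a ratio of LCM to control of 0.705, and the difference of -0.50 (SE 0.11, 95% interval -0.77 to -0.24) had an adjusted p = 0.0550 in limma. The adjusted p moved across the threshold with single arrays and filters. It was 0.0334 without control replicate 3, where the difference was -0.62, and 0.209 without LCM replicate 3, and over all alternatives it ran from 0.0201 to 0.346. Fzd3 lay close to the dim range, with a mean of 6.78 over the 6 arrays.

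Fzd4, a receptor for Wnt ligands and for Norrin, had 11.05, 11.21 and 11.01 in control and 10.98, 10.91 and 10.78 in LCM arrays. The groups were apart by a narrow gap, and the difference of -0.20 (95% interval -0.41 to 0.01, adjusted p = 0.269) did not pass. Fzd2 had 9.37, 9.28 and 9.53 in control and 9.17, 9.06 and 9.14 in LCM arrays, a difference of -0.27 (adjusted p = 0.142), also with the groups apart. In the remaining receptors the groups overlapped. Fzd10, Fzd1 and Fzd7 differed by -0.12, -0.12 and -0.08, and Fzd6, Fzd5 and Fzd8 by 0.02, 0.07 and 0.09.

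Neither co-receptor passed, and their differences had opposite signs. Lrp6 had 11.39, 11.32 and 11.33 in control and 11.24, 11.18 and 11.21 in LCM arrays, which did not overlap although the difference was only -0.14 (95% interval -0.29 to 0.02, adjusted p = 0.321). Lrp5 had 10.93, 10.77 and 10.99 in control and 10.92, 11.05 and 11.12 in LCM arrays, with overlap and a difference of 0.13 (95% interval -0.08 to 0.35, adjusted p = 0.486). Without control replicate 2, Lrp5 differed by 0.07 and Lrp6 by -0.15. Both intervals exclude a change of 2-fold.

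**Figure D2:**
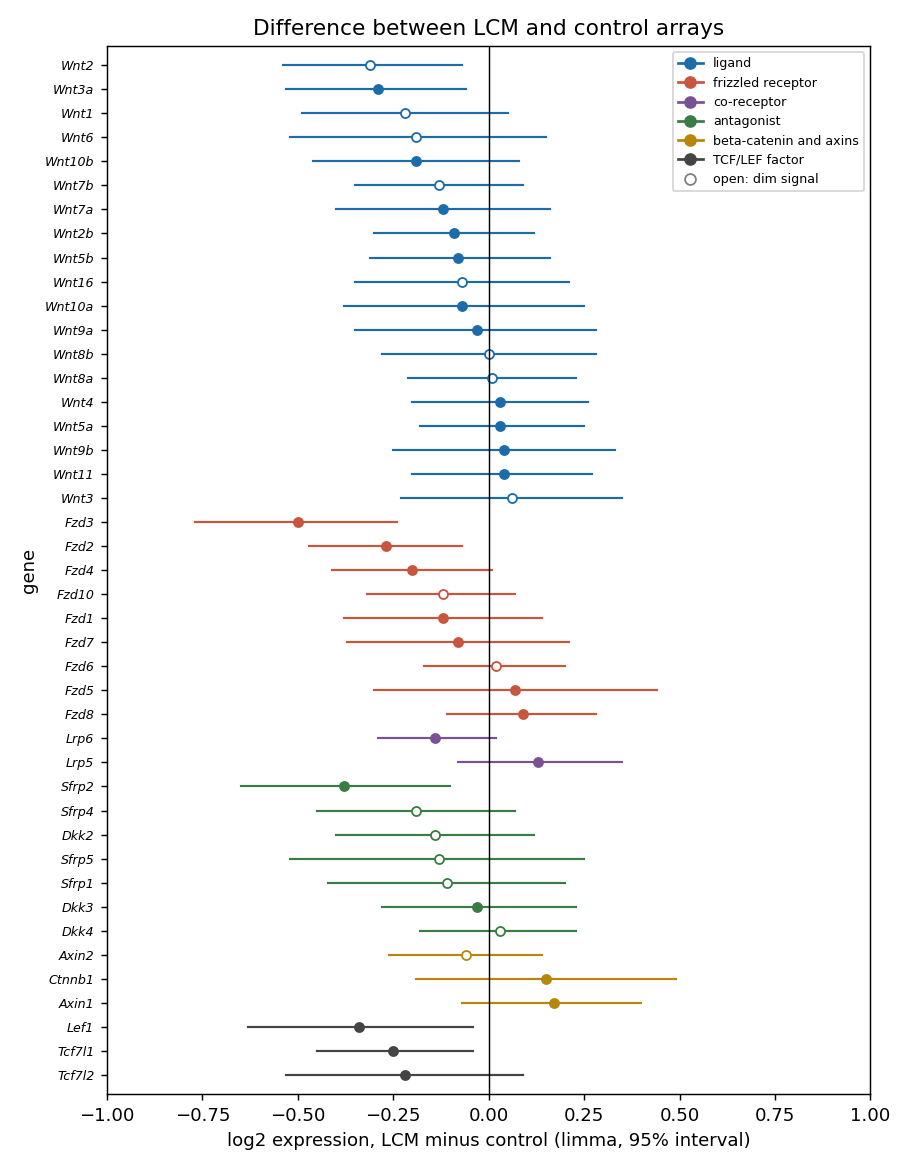
Difference of each member on the log2 scale (x axis, LCM minus control, limma with 95% interval, n = 3 arrays per group), grouped by class (y axis, genes); open symbols are dim members. Fzd3 has the largest difference, -0.50, and all intervals lie between -0.77 and 0.49.

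The 7 antagonists had a median difference of -0.13, with 6 below 0 and 5 of the 7 dim. Sfrp2, a secreted frizzled-related protein that binds Wnt ligands, had 10.88, 10.93 and 10.53 in control arrays and 10.47, 10.34 and 10.40 in LCM arrays. Its control replicate 3 lay only 0.06 above the highest LCM array. The mean was 10.78 ± 0.22 in control and 10.40 ± 0.06 in LCM arrays (SD, n = 3), and the difference of -0.38 (SE 0.12, 95% interval -0.65 to -0.10) had an adjusted p = 0.130. Without control replicate 3 the difference of Sfrp2 was -0.50 and its adjusted p was 0.0407. With any other array left out Sfrp2 did not pass, with an adjusted p from 0.152 to 0.350. Over all alternatives it ran from 0.0407 to 0.502. The promoter of Sfrp2 (chr3:83766071-83766370, plus strand, RefSeq, GRCm38.p6) is shown because this gene was the antagonist with the largest difference. It lacks the letters searched for.
Sfrp2: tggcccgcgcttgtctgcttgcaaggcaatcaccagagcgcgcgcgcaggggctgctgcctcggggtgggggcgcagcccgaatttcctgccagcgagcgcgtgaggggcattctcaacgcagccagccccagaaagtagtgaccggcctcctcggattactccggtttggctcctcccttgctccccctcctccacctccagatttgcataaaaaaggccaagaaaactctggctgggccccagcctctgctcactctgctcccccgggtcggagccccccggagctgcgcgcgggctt
Dkk3, a Dkk relative whose action on Wnt signals is less clear than that of its kin, was the other antagonist that was not dim and differed by -0.03. Sfrp4, Dkk2, Sfrp5 and Sfrp1 differed by -0.19, -0.14, -0.13 and -0.11, and Dkk4 by 0.03. All 5 of these were dim and had overlapping groups.

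Of beta-catenin and the axins, 0 of 3 passed, and their groups overlapped. Ctnnb1, which encodes beta-catenin, had 11.50, 10.98 and 11.48 in control and 11.47, 11.41 and 11.53 in LCM arrays. Control replicate 2 was low and the other 5 arrays lay within 0.12 of each other. The difference of 0.15 (95% interval -0.19 to 0.49, adjusted p = 0.636) became -0.03 without control replicate 2, so no direction is given. Axin1, a scaffold of the destruction complex, had 9.19, 8.95 and 9.23 in control and 9.29, 9.19 and 9.38 in LCM arrays, with overlap and a difference of 0.17 (adjusted p = 0.416), which was 0.08 without control replicate 2. Axin2, a feedback inhibitor whose transcription beta-catenin drives in many cells, was dim, with 5.99, 5.88 and 5.80 in control and 5.73, 5.86 and 5.90 in LCM arrays. Its difference was -0.06 (95% interval -0.26 to 0.14, adjusted p = 0.745), and between -0.11 and -0.01 with an array left out. These are transcript levels, and the amount of beta-catenin protein was not measured on the arrays.

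The 3 TCF/LEF factors all had a lower mean in LCM arrays, with differences of -0.34 to -0.22, and none passed. Lef1 had 8.91, 9.30 and 8.83 in control and 8.62, 8.73 and 8.68 in LCM arrays, apart by 0.10, with a difference of -0.34 (SE 0.13, 95% interval -0.63 to -0.04, adjusted p = 0.201). Tcf7l1, a factor that mostly represses in the absence of beta-catenin, had 10.29, 10.44 and 10.23 in control and 10.05, 10.00 and 10.17 in LCM arrays, a difference of -0.25 (adjusted p = 0.174). Tcf7l2 had 10.55, 10.96 and 10.46 in control and 10.43, 10.47 and 10.42 in LCM arrays. Its groups overlapped, and the difference was -0.22 (95% interval -0.53 to 0.09, adjusted p = 0.422). Control replicate 2 was the highest control array for all 3 factors. Without it the median difference of the 3 was -0.19 in place of -0.25, with all 3 below 0 and the groups apart for 2 of them. Singly, Lef1 then differed by -0.19, Tcf7l1 by -0.19 and Tcf7l2 by -0.06.

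Control replicate 2 was lower than the other controls for most ligands, and differed by class. It was the lowest control array for 28 of 43 members (65.1%), for 15 of 19 ligands (78.9%), for 4 of 9 frizzled receptors (44.4%) and for 47.3% of all genes. Fzd7, Sfrp2, Sfrp4, Fzd4 and Fzd3 were higher there than the mean of the other controls, by 0.40, 0.22, 0.21, 0.18 and 0.17. Its median difference from the mean of the other controls was -0.16 over the members and -0.05 over all genes. Without this array the median difference between LCM and control was -0.14 over the members and -0.04 over all genes, and 37 of 43 members (86.0%) were below 0, against 59.5% of all genes. The 3 LCM values then lay below both remaining controls for 13 members (30.2%), against 26.8% of all genes, and for 11 of 27 members that were not dim (40.7%), against 27.3% of such genes. They lay above both for 0 members, against 19.3% of all genes. In that fit 18 of 19 ligands were below 0, and 1 member fell, Wnt2, with a difference of -0.41 and an adjusted p = 0.0156, where 4.39% of all genes fell. Where control replicate 2 was the lowest control, leaving it out raised the control mean. The counts below 0 in that fit therefore follow in part from the array left out. Over the 6 arrays, the median deviation of the members from their own means was highest in control replicate 1, 0.13, and lowest in LCM replicate 1, -0.13. Without control replicate 1 the members' median difference was -0.03, and without LCM replicate 1 it was also -0.03.

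**Figure D3:**
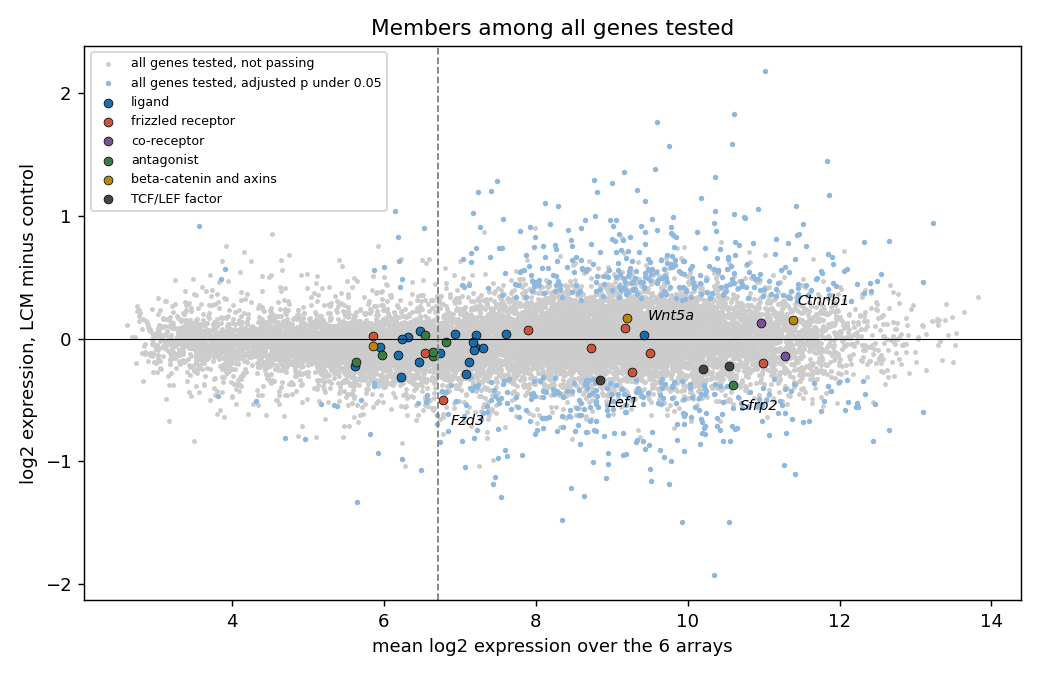
Difference on the log2 scale (y axis, LCM minus control) against mean log2 expression over the 6 arrays (x axis) for all 14860 genes tested, with the 43 members coloured by class and the dashed line at 6.71, at or below which a gene was called dim. Genes that passed are light blue, and no member is among them.

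Genes that act around the members were taken from a list of 58, of which 49 were measured. Of these 0 rose and 2 fell, where 2.29% of all genes tested rose and 1.97% fell. The median difference was -0.05, against -0.03 for all genes. Apcdd1, a membrane protein that inhibits Wnt signals, had 9.78, 10.01 and 9.70 in control and 9.10, 8.83 and 9.07 in LCM arrays. The groups were far apart, and Apcdd1 fell to a ratio of 0.561, with a log2 difference of -0.83 (SE 0.11, adjusted p = 0.0119). Leaving out any of the LCM arrays raised its adjusted p to 0.0528, 0.0598 and 0.0677 (without replicates 1, 2 and 3) while the difference stayed between -0.88 and -0.75. By the methods' t-test, with the adjustment added here, its adjusted p was 0.0781 unpaired and 0.399 in the paired form the methods give. That of Rspo2, described next, was 0.0663 and 0.371. Rspo2, a secreted R-spondin that strengthens Wnt signals, fell, with 7.79, 7.89 and 7.84 in control and 7.48, 7.31 and 7.43 in LCM arrays and a difference of -0.43 (SE 0.08, adjusted p = 0.0271). For Rspo2 the adjusted p was 0.0757 without control replicate 1, 0.0261 without control replicate 2, 0.0715 without control replicate 3, and 0.0848, 0.137 and 0.114 without LCM replicates 1, 2 and 3. The other measured R-spondins did not pass, with differences of -0.17 for Rspo1, 0.03 for Rspo3 and 0.19 for the dim Rspo4.

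Wnt ligands need Porcn, the acyltransferase that attaches their lipid, and Wls, which carries them to the surface. Porcn had 8.98, 8.43 and 9.03 in control and 9.42, 9.42 and 9.68 in LCM arrays. All LCM values were above all controls, with a ratio of 1.62 and a log2 difference of 0.69 (SE 0.17, adjusted p = 0.0708), and control replicate 2 was the lowest. Without that array the difference of Porcn was 0.50 and its adjusted p was 0.0323. The adjusted p was 0.120 and 0.078 without control replicates 1 and 3. Without LCM replicates 1, 2 and 3 it was 0.173, 0.188 and 0.238. Over all alternatives it ran from 0.0224 to 0.418. Wls had 11.34, 11.25 and 11.40 in control and 11.59, 11.46 and 11.45 in LCM arrays, a difference of 0.17 (adjusted p = 0.305) with the groups apart. Dvl2, a relay protein below the frizzled receptors, differed by 0.24 (adjusted p = 0.102). The 13 measured genes of the cytoplasmic relay had a median difference of 0.02 and the 9 nuclear partners one of -0.08, and 0 of either passed.

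Known target genes of beta-catenin and TCF/LEF factors were taken from a list of 30, of which 26 were measured. Of these 4 are also members and 5 also stand in the list of 58. None rose, and 1 fell, Apcdd1, whose values are given above, where 2.29% of all genes tested rose and 1.97% fell. The median difference was -0.08. Fst, which encodes the activin-binding protein follistatin, had 9.66, 10.21 and 9.43 in control and 9.23, 8.81 and 8.87 in LCM arrays, apart with a difference of -0.80 (SE 0.21, adjusted p = 0.0835). Control replicate 2 was the highest for Fst, and without it the difference was -0.58 (adjusted p = 0.0585). Ccnd1, which encodes cyclin D1, differed by -0.29 (adjusted p = 0.271) and Myc by -0.16, both with overlap. The feedback targets Lgr5, Rnf43, Notum and Nkd1, which like Axin2 limit or mark Wnt signalling in many tissues, differed by -0.08, -0.02, -0.17 and 0.01, and 3 of these 4, all but Nkd1, were dim.

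**Figure D4:**
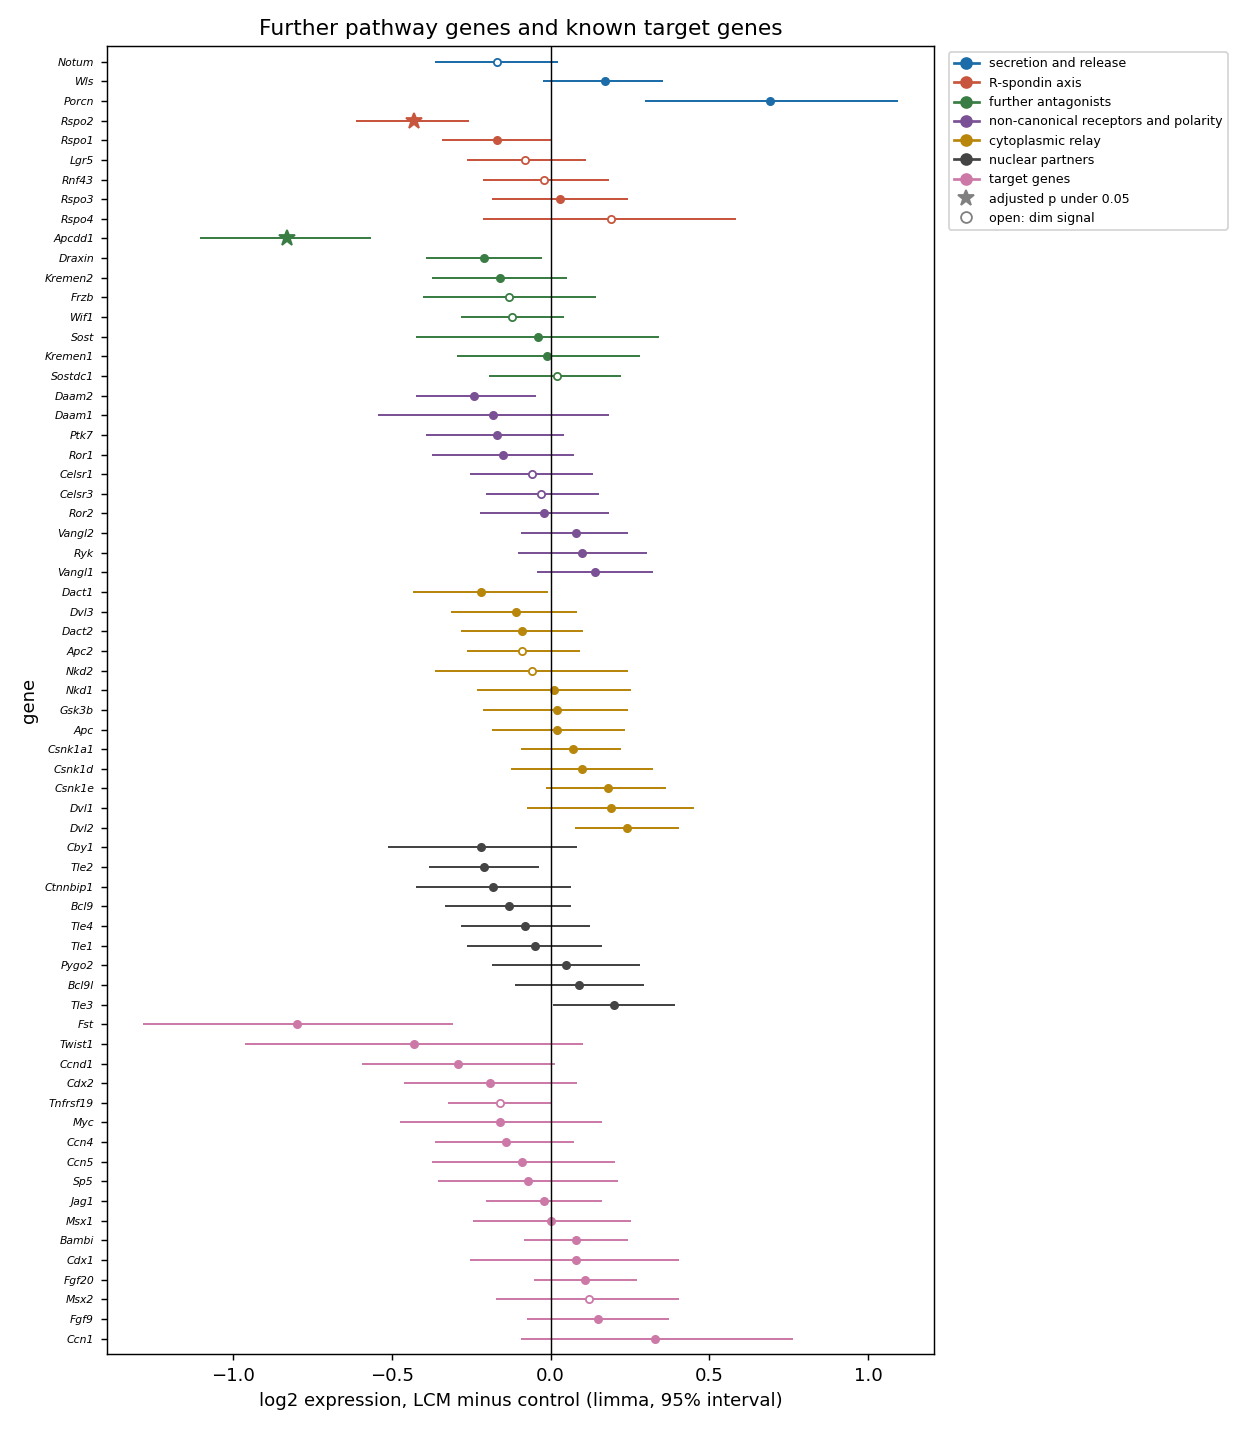
Difference on the log2 scale (x axis, LCM minus control, limma with 95% interval, n = 3 arrays per group) for the measured genes around the members and the known target genes (y axis), coloured by role; stars mark an adjusted p under 0.05 and open symbols dim genes. Apcdd1 and Rspo2 carry the stars, at -0.83 and -0.43, and Porcn lies farthest to the right, at 0.69.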

How the data were processed

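The authors deposited log2 expression values made with RMA, which corrects background, normalizes across arrays and summarises the probes of a transcript; its settings, the array version and the genome build are not stated in these sources. Of 23332 transcripts, 14996 named a single gene; where a gene had several transcripts (135 genes), the one with the highest mean was used. All 43 members had 1 transcript and a gene identifier in the RefSeq table (GRCm38.p6).

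LCM and control arrays (3 each) were compared with limma 3.58.1 under R 4.3.3, by lmFit and two-sided eBayes tests with no block, and p-values were Benjamini-Hochberg adjusted over 14860 genes. Differences are LCM minus control. An exact permutation test of 3 against 3 arrays cannot go below p = 0.1 and was not used. The number of arrays limits the precision.

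Members and gene lists were chosen with earlier results of these data known. Values per array are given for members that passed, for members not dim with groups apart and a difference of at least 0.3, for the brightest member of each class, and for other list genes that passed or had the smallest adjusted p. Wnt2, Wnt3a, Wnt10b, Wnt11, Wnt5b, Fzd2, Lrp5, Axin1, Axin2, Tcf7l1 and Wls were added after their values were seen.

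The sources do not state that replicate numbers pair the cultures, so the main fit had no block. Alternatives were other transcript rules, filters on dim genes, other normalizations and variance models, the replicate number as a block and array weights. Paired and unpaired t-tests, adjusted, and each array left out in turn were also used. Python 3.11.15 with pandas 2.3.3 and matplotlib 3.10.9 served for tables and figures.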

Additional observations from a re-analysis of the deposited data

How the results depend on the processing

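Under 18 alternatives, 0 members rose, and the members' median difference stayed between -0.14 and -0.03. The count of members that fell, 0, became 1 (Fzd3) in some settings. These left out the genes of lowest signal, left out dim genes, or centred each array on its median. In that order, Fzd3 had an adjusted p of 0.0362, 0.0321 and 0.0401 in limma. The genes that passed in either direction were then 832 of 11145, 896 of 9539 and 640 of 14860. With array weights 4 of 43 members fell (Fzd2, Fzd3, Sfrp2 and Wnt2), where 1864 of 14860 genes passed in either direction. Leaving out single arrays gave 0 to 2 members that fell (Wnt2 without control replicate 2, Fzd3 and Sfrp2 without control replicate 3). In these 2 fits 1332 and 350 of 14860 genes passed in either direction. The number of all genes that passed, 633, became 275 with all transcripts tested, 1864 with array weights and 170 with an unpaired t-test. It ran from 60 to 1332 with an array left out, and the cause was not tested. With the replicate block 324 genes and 0 members passed, and with the paired t-test, adjusted, 0 genes passed. Deviations from the group means correlated at -0.234, 0.0552 and 0.112 between same-numbered arrays. With 3 arrays per group, these values cannot settle whether the numbers pair the cultures. The block took Rspo2 out of the calls (adjusted p = 0.0863) and brought Porcn in (0.0464). Wnt5a changed sign to -0.016 with each array centred, and ran from -0.027 to 0.078 with an array left out. Ctnnb1 changed sign to -0.010 with array weights, and ran from -0.025 to 0.239 with an array left out. Of 339 values of single genes, 304 kept direction and side of the threshold, 16 gained and 14 lost a call, and 5 changed sign. Centring moved the median of all genes from -0.03 to -0.08. For the 16 dim members, low signal limits what a small difference can show.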
